A study of Mus musculus with 12 samples.

Results

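Itga6 and 6 genes whose products work with it at the epithelial base (Itga3, Itgb4, Lama3, Lamb3, Plec and Cd151) were followed through the urogenital sinus of fetal mice at stage E18.5. These 7 genes were chosen by name from the 56495 genes of the deposited expression table. All 7 were found once in it and passed the filter on low values. The 12 libraries formed 4 groups of 3. Mutant females and mutant males were labelled Inv(Itga6-nsi)d11lac, and the other groups were wild type females and wild type males. The label names an inversion (Inv) with Itga6 at one end, and the labels do not describe nsi or d11lac. They give neither the number of mutant copies nor whether a library stands for 1 embryo, so the p-values speak of the spread among libraries, which may be technical. The dissected tissue left out the bladder and held the proximal urethra, together with the vagina in females, so each library mixes epithelium with muscle, connective tissue, vessels and nerves. In such bulk samples, fewer cells of a type and less RNA per cell cannot be told apart.

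Hemidesmosomes are the rivets that hold basal epithelial cells to the basement membrane. Their core is an integrin dimer of the α6 chain, made by Itga6, and the β4 chain, made by Itgb4. Outside the cell the dimer binds a laminin that holds the chains of Lama3 and Lamb3, and inside it the plakin proteins of Plec and Dst tie it to keratin filaments. Cd151 is a tetraspanin membrane protein that associates with laminin-binding integrins. The α3 chain of Itga3 pairs with the β1 chain of Itgb1 to bind the same laminin. Itga6 is also expressed outside epithelium, for example in endothelium, where its chain pairs with β1. In skin, loss of Itga6, Itgb4, Lama3 or Lamb3 causes blistering.

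In the positions of the deposited table, taken as mouse build mm39, Itga6 (ENSMUSG00000027111) lies on chromosome 2 at 71617284 to 71687115. Itga3 and Itgb4 both lie on chromosome 11, at 94935300 to 94967627 and at 115865535 to 115899238. Lamb3 is on chromosome 1 at 192890033 to 193026186, Plec on chromosome 15 at 76055174 to 76116770 and Cd151 on chromosome 7 at 141047306 to 141051386. The gene ID of Lama3 is ENSMUSG00000024421. The Lamb3 locus of the table also spans G0s2 and Hsd11b1, which averaged 5.47 and 0.46 scaled FPKM over the 12 libraries. That of Cd151 overlaps Gm10575, at 1.21. Whether the authors' counting used strand was not given in the sources used here.

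RefSeq start-site windows of 250 bases before and 50 after a gene's start were matched for 3 of the 7 members. They are shown for Itga3 and Lamb3, which both rose in mutant females, and for Cd151, which did not pass the test. The first listed window of each is given 5′ to 3′ in build GRCm38.p6, at chr11:95076665-95076964 (minus strand), chr1:193301744-193302043 (plus strand) and chr7:141467112-141467411 (plus strand). Capitals mark GGGCGG on either strand, the letters of a GC box. TATAAA and TGANTCA were searched on both strands as well, and the motifs do not overlap in these windows.
Itga3: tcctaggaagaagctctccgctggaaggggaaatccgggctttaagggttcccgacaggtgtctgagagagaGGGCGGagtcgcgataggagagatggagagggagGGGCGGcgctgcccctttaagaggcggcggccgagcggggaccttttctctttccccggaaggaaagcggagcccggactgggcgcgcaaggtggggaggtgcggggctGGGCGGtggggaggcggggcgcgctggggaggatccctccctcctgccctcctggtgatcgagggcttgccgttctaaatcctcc
Lamb3: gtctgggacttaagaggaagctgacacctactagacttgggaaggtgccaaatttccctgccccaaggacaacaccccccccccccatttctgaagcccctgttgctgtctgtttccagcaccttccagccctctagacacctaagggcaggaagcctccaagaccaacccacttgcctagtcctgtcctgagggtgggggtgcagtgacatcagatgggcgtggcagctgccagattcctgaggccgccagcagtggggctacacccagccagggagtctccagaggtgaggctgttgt
Cd151: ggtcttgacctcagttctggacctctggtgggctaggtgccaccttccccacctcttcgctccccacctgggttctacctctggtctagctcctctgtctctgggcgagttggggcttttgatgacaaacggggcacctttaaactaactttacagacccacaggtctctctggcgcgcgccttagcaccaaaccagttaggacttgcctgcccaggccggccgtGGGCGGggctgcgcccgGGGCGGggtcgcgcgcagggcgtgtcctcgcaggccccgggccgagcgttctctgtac
GGGCGG occurred 3 times in the Itga3 window, 0 times in that of Lamb3 and 2 times in that of Cd151, and it occurred in 35.7% of the 32851 windows in the table. TATAAA and TGANTCA occurred in none of the 3, and in 13.6% and 7.81% of all windows. The windows of Itga3 and Cd151 were rich in CpG, with 24 and 20 of these dinucleotides, against 2 in that of Lamb3 and a median of 7 over all windows. These letters are a description and name no bound factor.

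Values are FPKM, fragments scaled to transcript length and library size, divided by 1 factor for each library and called scaled FPKM. Fold changes are differences on the log2 scale of scaled FPKM plus 0.5, mutant over wild type. A gene is said to be called, or to rise or fall, where the Benjamini-Hochberg adjusted p of limma over the 13904 genes tested was under 0.05. Whether groups overlap is given as a description of the libraries only. How many of all genes separate in this way was not counted. Relative sequencing depth was 0.582 to 0.717 in the 6 mutant libraries and 0.812 to 1 in the 6 wild type libraries, so depth and genotype cannot be told apart. Fold changes also moved with base composition. Over both sexes the median change was -0.35 in the fifth of genes with the lowest transcript GC content and 0.25 in the fifth with the highest. Members are therefore also given with both GC content and transcript length regressed out of each library, called the GC and length correction. Mutant female 1 stood apart for the members: it had the lowest Itga6 of the 12 libraries and the highest value of each of the other 6 members.

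The β4 integrin gene Itgb4 rose most. Itgb4 had 9.38, 5.33 and 6.98 scaled FPKM in mutant females 1, 2 and 3, against 2.91, 2.66 and 3.22 in wild type females. In males it was at 6.5, 5.54 and 6.2 in mutants, against 2.85, 3.43 and 3.27 in wild type. Every mutant library was thus above every wild type library. The log2 fold change of Itgb4 was 1.14 in females (SE 0.16, limma adjusted p = 0.00105) and 0.84 in males (SE 0.16, adjusted p = 0.0067). Over both sexes it was 0.99 (SE 0.12, adjusted p = 0.000135), a fold of 1.99. With the GC and length correction, Itgb4 stood at 0.81 in females (limma adjusted p = 0.0186) and 0.64 over both sexes (adjusted p = 0.00583), both still called, and at 0.47 in males, no longer called (adjusted p = 0.152). Without mutant female 1 it was 0.95 in females (limma adjusted p = 0.00132).

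Its dimer partner Itga6 did not move with it. Itga6 had 18.1, 25.6 and 28.2 scaled FPKM in mutant females 1, 2 and 3, against 27, 25.7 and 28.6 in wild type females. These groups overlap, and the low mean of mutant females rests on mutant female 1. In males Itga6 was at 18.4, 19.6 and 19.1 in mutants, against 22.8, 23.4 and 24 in wild type, and here the groups did not overlap. The value of Itga6 was -0.29 in males (SE 0.13, limma adjusted p = 0.131), -0.20 in females (SE 0.13, adjusted p = 0.274) and -0.24 over both sexes (95% interval -0.44 to -0.04, adjusted p = 0.051), and 0 of the 3 was called. Without mutant female 1, Itga6 was called lower in males at -0.29 (limma adjusted p = 0.0073) and over both sexes at -0.15 (adjusted p = 0.0218), while its value in females was -0.01 (adjusted p = 0.929). It was also called lower over both sexes without mutant female 2, at -0.27, or without mutant female 3, at -0.30 (limma adjusted p = 0.0444 and 0.0128). Corrected for GC and length, its values were -0.31 in males, -0.18 in females and -0.25 for both (limma adjusted p = 0.186, 0.386 and 0.0769).

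**Figure D1:**
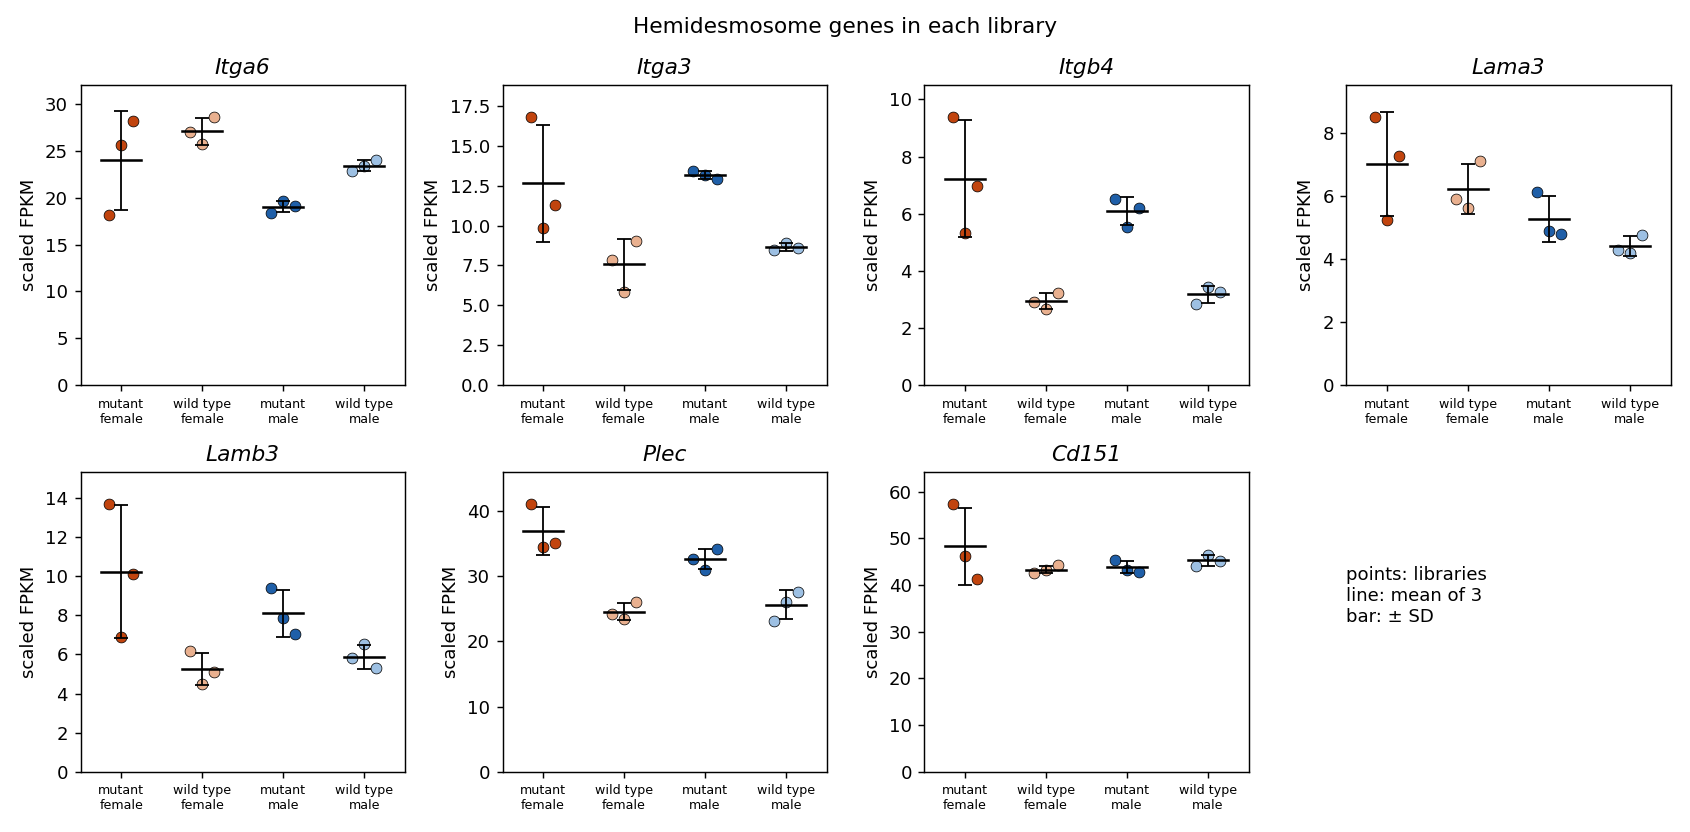
Scaled FPKM (vertical axis, from 0) of the 7 members in the 12 libraries, by group. Points are libraries, lines are means and bars are ± SD (n = 3). Itgb4, Itga3, Lamb3 and Plec lie higher in every mutant library than in every wild type library, while Itga6 lies lower in the 3 mutant males than in the 3 wild type males and overlaps between the female groups.

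The unequal change showed in the ratio of the 2 chains within a library, where the library's divisor cancels. Per length, Itga6 was at 1.93, 4.8 and 4.04 times the level of Itgb4 in mutant females 1, 2 and 3, against 9.29, 9.66 and 8.87 times in wild type females. In males the ratio was 2.83, 3.54 and 3.08 in mutants, against 8, 6.83 and 7.34 in wild type. All 6 mutant libraries were below all 6 wild type libraries. The ratio averaged 3.59 ± 1.49 in mutant females and 9.28 ± 0.395 in wild type females, and 3.15 ± 0.358 in mutant males and 7.39 ± 0.587 in wild type males (SD, n = 3). On the log2 scale with 0.5 added to each gene, it differed by -1.23 over both sexes, with -1.34 in females and -1.13 in males. The two-sided exact permutation test, exchanging genotypes within each sex, gave p = 0.005, the smallest its 400 arrangements can give (adjusted p = 0.01 over 4 ratios). The difference was -0.88 after the GC and length correction (exact permutation adjusted p = 0.01) and -1.04 without mutant female 1. The ratios of chains here and below use the same values as the gene tests and are not separate support. How many other gene pairs reach such p-values was not counted.

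Itga3, the other integrin α chain gene among the members, rose with Itgb4. It had 16.8, 9.84 and 11.3 scaled FPKM in mutant females 1, 2 and 3, against 7.84, 5.85 and 9.03 in wild type females. In males Itga3 was at 13.4, 13.2 and 12.9 in mutants, against 8.45, 8.91 and 8.6 in wild type. Neither sex showed an overlap between genotypes. The log2 fold change of Itga3 was 0.69 in females (SE 0.18, limma adjusted p = 0.0157), 0.58 in males (SE 0.18, adjusted p = 0.0413) and 0.63 over both sexes (SE 0.13, adjusted p = 0.00242). The call in males was lost without any 1 of the 6 male libraries or without wild type female 1 (limma adjusted p up to 0.118), and the call in females without wild type female 2 (adjusted p = 0.0594). Corrected for GC and length, Itga3 stood at 0.41 in females, 0.30 in males and 0.35 over both sexes, none of them called (limma adjusted p = 0.198, 0.383 and 0.0863).

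Between the integrin α chains of the members, the balance of Itga6 and Itga3 shifted. Itga6 stood at 2.06 ± 0.853 times Itga3 in mutant females and 3.67 ± 0.645 times in wild type females. In males it stood at 1.44 ± 0.0629 times Itga3 in mutants and 2.71 ± 0.0804 times in wild type (SD, n = 3). In mutant female 1 the ratio was 1.08, the lowest of all libraries. The log2 ratio differed by -0.88 over both sexes (two-sided exact permutation p = 0.005, the smallest possible, adjusted p = 0.01), by -0.68 without mutant female 1, and by -0.6 after the GC and length correction (exact permutation adjusted p = 0.0133). Itgb1, which makes the β1 partner of both α chains, fell by 0.49 on the log2 scale over both sexes (SE 0.08, limma adjusted p = 0.000588). It averaged 104 ± 8.74 scaled FPKM in mutant females and 153 ± 11.6 in wild type females, and 131 ± 13.4 in mutant males and 176 ± 19.3 in wild type males (SD, n = 3). The corrected value of Itgb1 was -0.3, still called (limma adjusted p = 0.0196). Every mutant library of Itgb1 lay below every wild type library of the same sex.

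**Figure D2:**
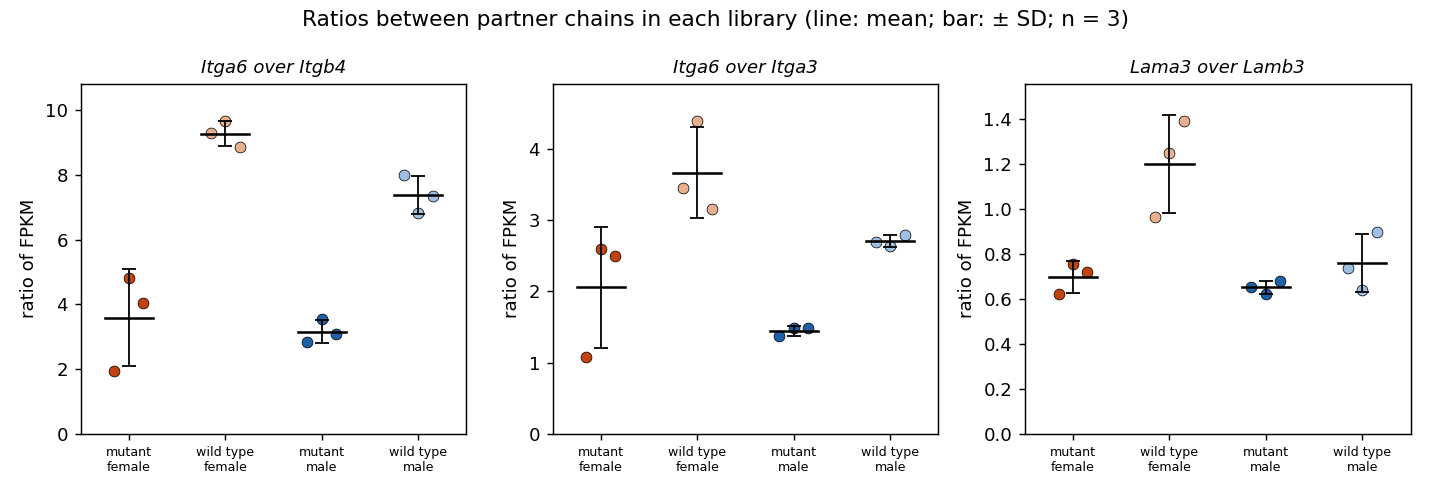
Ratios of FPKM between partner chains (vertical axes, from 0) in the 12 libraries by group; lines are means and bars ± SD (n = 3). Itga6 over Itgb4 is at 1.93 to 4.8 in the mutant libraries and at 6.83 to 9.66 in the wild type libraries, and Itga6 over Itga3 is at 1.08 to 2.6 against 2.63 to 4.39.

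The chains of the hemidesmosomal laminin did not change in step. Lamb3, which makes the β3 chain, had 13.7, 6.91 and 10.1 scaled FPKM in mutant females 1, 2 and 3, against 6.15, 4.5 and 5.11 in wild type females. In males Lamb3 was at 9.39, 7.85 and 7.04 in mutants, against 5.8, 6.53 and 5.31 in wild type. The genotypes did not overlap in either sex, although mutant male 3 lay close to wild type male 2. Lamb3 rose by 0.86 in females (SE 0.20, limma adjusted p = 0.0105) and by 0.64 over both sexes (SE 0.14, adjusted p = 0.00482), while its value of 0.42 in males did not pass (adjusted p = 0.165). With the GC and length correction 0 of these calls remained, at 0.64 in females and 0.42 over both sexes (limma adjusted p = 0.085 and 0.0731).

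Lama3, which makes the α3 laminin chain, was not called in any genotype comparison with all 12 libraries. It had 8.5, 5.23 and 7.27 scaled FPKM in the mutant females, against 5.91, 5.61 and 7.11 in wild type females, and at 6.11, 4.89 and 4.78 in mutant males, against 4.28, 4.18 and 4.76 in wild type males. The female groups overlapped, and the male groups were just apart, at 4.78 in mutant male 3 and 4.76 in wild type male 3. Its value over both sexes was 0.18 (95% interval -0.06 to 0.43, limma adjusted p = 0.212), and -0.01 once corrected. Without mutant female 2 it was 0.28 and called (limma adjusted p = 0.0326).

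Within a library, Lama3 stood at 0.699 ± 0.071 times Lamb3 in mutant females and 1.2 ± 0.219 times in wild type females, and at 0.651 ± 0.0281 times in mutant males and 0.758 ± 0.129 times in wild type males (SD, n = 3). The log2 ratio differed by -0.46 over both sexes (two-sided exact permutation p = 0.015, adjusted p = 0.015), with -0.72 in females and -0.2 in males. Wild type male 2, at 0.64, lay within the range of the mutant males. The GC and length correction left the difference at -0.42 (exact permutation adjusted p = 0.01).

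Plec, the plakin that ties the integrin to keratins, had 41.1, 34.5 and 35.1 scaled FPKM in the mutant females and 24.2, 23.5 and 26 in wild type females. In males Plec was at 32.7, 31 and 34.1 in mutants and 23.2, 26.1 and 27.6 in wild type. The genotypes did not overlap in either sex. Plec rose by 0.57 in females (SE 0.09, limma adjusted p = 0.00131), by 0.34 in males (SE 0.09, adjusted p = 0.0206) and by 0.46 over both sexes (SE 0.06, adjusted p = 0.000282). The male call of Plec was lost without mutant male 1, mutant male 3 or wild type male 1 (limma adjusted p = 0.0666, 0.0567 and 0.0916). Plec is the member with the highest transcript GC content and the longest transcript, at 61.3% and 15455 bases, against medians of 49.9% and 3367 bases. After the correction for both it stood at 0.17 in females, -0.19 in males and -0.01 over both sexes, none of them called (limma adjusted p = 0.312, 0.29 and 0.925), so its direction depends on that step.

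Cd151, the tetraspanin, was the member with the highest level in every group, and it was not called. It had 57.4, 46.2 and 41.3 scaled FPKM in the mutant females, against 42.5, 43.3 and 44.2 in wild type females, and at 45.3, 43.3 and 42.8 in mutant males, against 44.1, 46.5 and 45.2 in wild type males. Both pairs of groups overlapped. Its value was 0.05 over both sexes (95% interval -0.11 to 0.2, limma adjusted p = 0.613), 0.14 in females and -0.05 in males. The corrected values were -0.06, 0.01 and -0.13 (limma adjusted p = 0.502, 0.936 and 0.366).

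**Figure D3:**
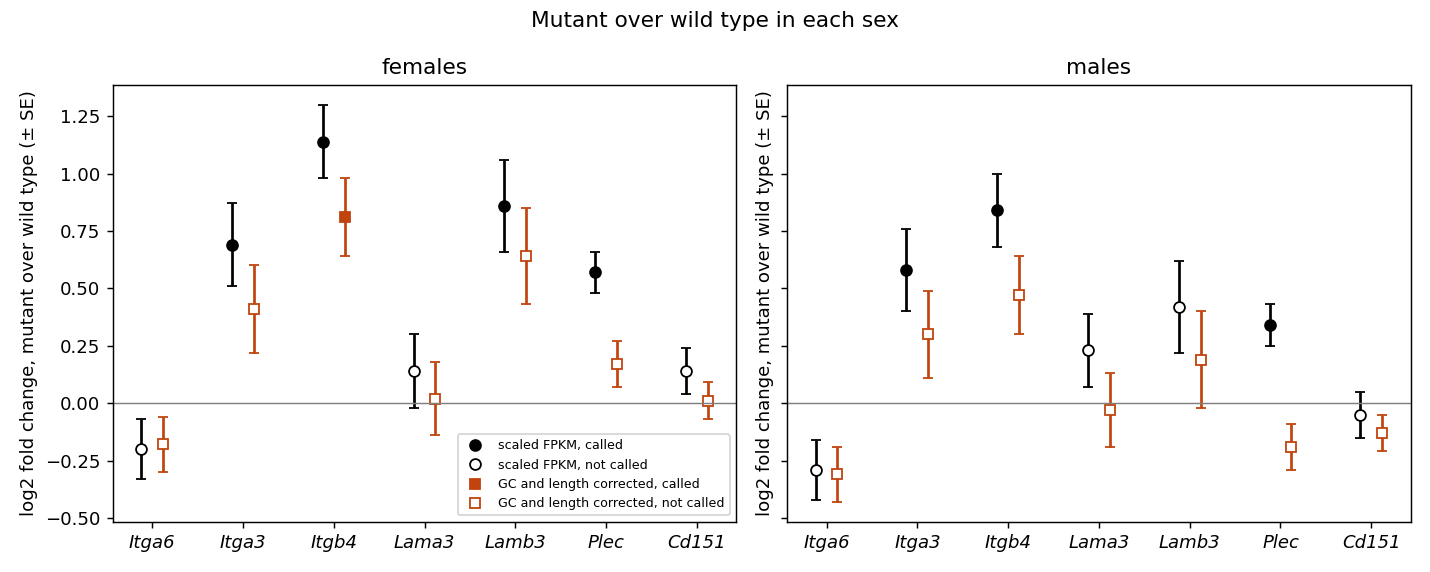
Log2 fold change, mutant over wild type, of each member in females and males (± SE; black circles, scaled FPKM; red squares, after the GC and length correction; filled symbols were called). Itgb4 in females is the only value called after the correction; Plec is at 0.34 before it and -0.19 after it in males.

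Counted together, 4 of the 7 members rose and 0 fell in females, where 28% of all genes were called, 12.1% higher and 15.9% lower. In males 3 members rose and 0 fell, where 20.3% of genes were called, 8.64% higher and 11.6% lower. With the sexes combined 4 members rose and 0 fell, where 40.6% of genes were called, 18.9% higher and 21.6% lower. The members' median log2 fold changes were 0.57, 0.34 and 0.46, against a median of 0 over all genes in each comparison. With the GC and length correction the counts were 1, 0 and 1 members higher and 0 lower, the medians were 0.17, -0.03 and -0.01, and 7.84%, 3.55% and 17.3% of the 13735 genes with a GC value were called. The 4 members that rose have transcripts of 55.6% to 61.3% GC, while Itga6, Lama3 and Cd151 are at 48.9%, 51.7% and 54.4%. With FPKM as deposited, Itgb4 alone was called in either sex, and 4 members rose over both sexes, where 24.6% of all genes were called. The median of all genes then stood at -0.14 in males and -0.08 in females.

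**Figure D4:**
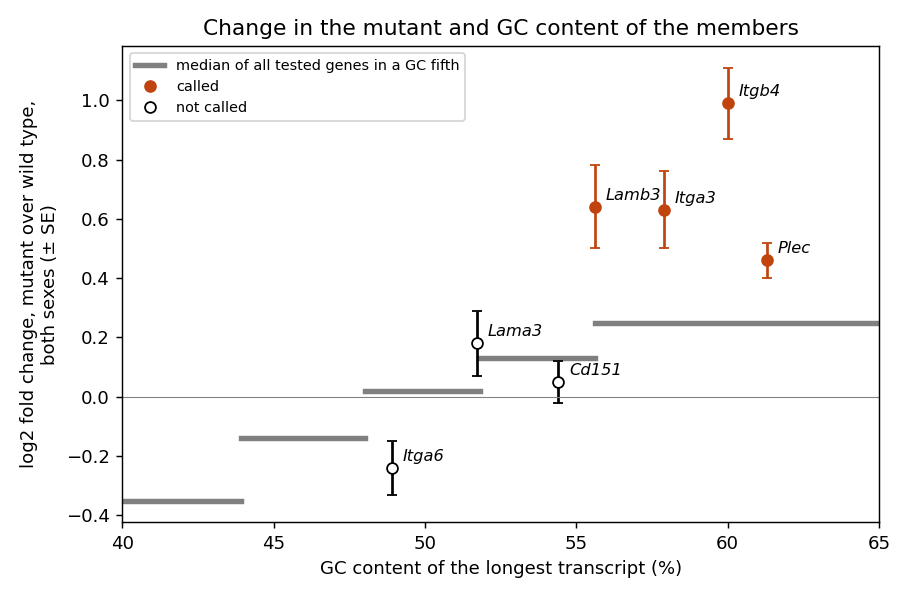
Log2 fold change over both sexes (vertical axis, ± SE) against the GC content of the longest transcript (horizontal axis, 40% to 65%) for the 7 members. Grey bars are the medians of all tested genes in 5 bins of GC content, at -0.35 in the lowest and 0.25 in the highest (both bins run on past the axis). Itgb4, Itga3, Lamb3 and Plec lie above the bar at their GC content and Itga6 lies below it.

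The difference of the mutant effect between males and females was called by limma for 0 of the 13904 genes, of which 1225 had an unadjusted p under 0.05, and for 0 of the 7 members, with unadjusted limma p from 0.0897 for Plec to 0.717 for Lama3. Itgb4 and Lamb3 had male-minus-female differences of -0.30 and -0.44, with 95% intervals of -0.81 to 0.2 and -1.07 to 0.2. An equal effect in both sexes is not shown by this.

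Between males and females, 0 of the 7 members were called by limma in mutants, where 7.49% of all genes were (3.98% higher and 3.52% lower in males), and 0 in wild type, where 3.18% were (1.95% higher and 1.23% lower). Lama3 averaged 4.4 ± 0.309 scaled FPKM in wild type males and 6.21 ± 0.793 in wild type females (SD, n = 3), without overlap. Its log2 value was -0.45 in wild type (SE 0.16, limma adjusted p = 0.169) and -0.36 in mutants (adjusted p = 0.184). Lama3 was called in mutants at -0.54 without mutant female 2 (limma adjusted p = 0.0321). In wild type it was called at -0.45 with the wild type libraries alone (limma adjusted p = 0.0414). Itga6 had male over female values of -0.21 in wild type and -0.30 in mutants (limma adjusted p = 0.422 and 0.174), and without mutant female 1 the mutant value was -0.49 and called (adjusted p = 0.0025). The values of the other 5 members lay between 0.06 and 0.2 in wild type and between -0.28 and 0.09 in mutants. Among basal genes Krt17, a keratin of the basal layer, was lower in males than in females in both genotypes, by 2.61 on the log2 scale in mutants and 2.15 in wild type (limma adjusted p = 0.00262 and 0.0101).

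The order of the 7 levels, which FPKM allow to be compared per length, also shifted. In mutants of both sexes it ran Cd151, Plec, Itga6, Itga3, Lamb3, Itgb4 and Lama3. In mutant females these were at 48.3, 36.9, 24, 12.6, 10.2, 7.23 and 7 scaled FPKM, with overlapping libraries for each neighbouring pair from Itga3 down. In mutant males they were at 43.8, 32.6, 19, 13.2, 8.09, 6.08 and 5.26, where Itgb4 and Lama3 alone overlapped. Itgb4 was the lowest of the 7 in wild type, at 2.93 in females and 3.18 in males. Plec and Itga6 were not separated in wild type, at 24.6 and 27.1 in females and 25.6 and 23.4 in males.

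A further 7 genes of the hemidesmosome and its anchorage were read beside the members. Of these, 4 were called higher in females and 3 in males, where 12.1% and 8.64% of all genes were. In either sex 0 were called lower. For the sexes combined 4 rose and 0 fell, at a median of 0.76 against 0 for all genes, of which 18.9% rose. Corrected for GC and length, 2 rose in females, 1 in males and 4 over both sexes. Of all genes 7.84%, 3.55% and 17.3% were then called. Col17a1, the transmembrane collagen of the hemidesmosome, had 17.3, 10.4 and 15.9 scaled FPKM in mutant females, against 6.22, 6.88 and 6.81 in wild type females. In males it was at 10.1, 10.5 and 7.31 in mutants and 3.2, 5.51 and 5.37 in wild type. No mutant library of Col17a1 overlapped with wild type of the same sex. Its log2 fold change over both sexes was 0.99 (SE 0.16, limma adjusted p = 0.000626), or 0.72 corrected for GC and length (adjusted p = 0.0114).

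Col7a1, the collagen of the anchoring fibrils beneath hemidesmosomes, rose by 0.90 (SE 0.13, limma adjusted p = 0.000331), with 6.56 ± 1.73 scaled FPKM in mutant females and 3.21 ± 0.271 in wild type females, and 3.88 ± 0.218 in mutant males and 1.89 ± 0.479 in wild type males (SD, n = 3). The basal keratins Krt5 and Krt14, to which plectin binds the integrin, rose by 1.54 and 0.76 over both sexes (limma adjusted p = 0.000329 and 0.00418). The call of Krt14 was made in females at 1.08 (limma adjusted p = 0.00709), while its 0.45 in males did not pass (adjusted p = 0.205). Corrected for GC and length, Col7a1, Krt5 and Krt14 stood at 0.47, 1.36 and 0.59 and were still called (limma adjusted p = 0.0268, 0.00263 and 0.0293). Dst, the plakin partner of Plec, and Fermt1, an integrin activator of epithelial cells, had values of 0.07 and 0.12 and were not called (limma adjusted p = 0.606 and 0.522). Dst counts all its isoforms, including those of nerve and muscle.

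Markers of basal epithelium were also higher in mutants. All 5 basal epithelial markers (Krt5, Krt14, Krt15, Krt17 and Trp63) rose over both sexes, 5 rose in females, 1 (Krt5) in males, and 0 fell in these comparisons, where 18.9%, 12.1% and 8.64% of all genes were called higher. Krt17 rose by 1.17 over both sexes (limma adjusted p = 0.00485). Corrected for GC and length, 4 basal markers rose over both sexes, 3 in females and 1 in males. Of all genes 17.3%, 7.84% and 3.55% were then called. Krt15 stood at 0.5 over both sexes after the correction and was no longer called (limma adjusted p = 0.0637). It held most of the basal sum, with a mean of 269 scaled FPKM in wild type females. The summed level of the basal list was 497 to 1070 scaled FPKM in mutant females and 338 to 424 in wild type females, and 418 to 585 in mutant males and 265 to 438 in wild type males. Of 6 general epithelial markers, 5 were not called and 1, Cdh1, rose over both sexes, where 40.6% of all genes were called. Cdh1 rose by 0.93 (limma adjusted p = 0.00126), and the list summed to 522 to 1080 in mutant females and 430 to 534 in wild type females, and 401 to 592 in mutant males and 389 to 470 in wild type males. No marker of either list was at 0 in all libraries of a group. Krt5 and Krt14 stand in both the basal list and the hemidesmosome list. The part of epithelial markers in the members' changes was not tested.

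Set against the general epithelial sum, Itgb4 was higher in mutants. The log2 ratio of Itgb4 to the general epithelial sum was -6.62 ± 0.23 in mutant females and -7.35 ± 0.02 in wild type females, and -6.34 ± 0.28 in mutant males and -7.08 ± 0.22 in wild type males (SD, n = 3). To the basal sum, the log2 ratio of Itgb4 was -6.69 ± 0.14 in mutant females and -6.99 ± 0.05 in wild type females, and -6.38 ± 0.32 in mutant males and -6.72 ± 0.3 in wild type males (SD, n = 3), a male difference of about the spread between libraries. Itga6 stood lower against the epithelial markers in mutants. Its mutant minus wild type differences were -0.74 in females and -0.49 in males to the general sum, and -1.17 and -0.9 to the basal sum. Among mutant females the SD of these ratios was 0.89 and 0.83, so the female difference to the general sum lay within that spread. Mutant female 1 had the lowest Itga6. Among mutant males the SD was 0.31 and 0.24. Lamb3 and Itga3 stayed within 0.25 of the basal sum in both sexes, at -0.05 and -0.25 in females and -0.15 and 0.01 in males. These ratios carry no test and no GC and length correction.

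Around the members, other laminins and basement membrane genes moved upward or did not pass, while integrin subunits went both ways. Of all genes 18.9% rose over both sexes, 12.1% in females and 8.64% in males. Among 9 other laminin chains 3 rose and 0 fell over both sexes, 2 rose in females and 4 in males. Lamc3 rose by 0.80 (limma adjusted p = 0.00352) and Lama5, a chain of epithelial and vascular basement membranes, by 0.78 (adjusted p = 0.000582). Among 12 tested basement membrane genes 8 rose and 0 fell over both sexes, with Col7a1 and the type IV collagen gene Col4a5 (0.69, limma adjusted p = 0.000203) highest. Among 5 tested plakins, 3 rose over both sexes, Ppl by 0.90 and Evpl by 0.76 (limma adjusted p = 0.00407 and 0.00478) among them. Corrected for GC and length, the laminin chains had 0 calls in either direction, the basement membrane genes 2 higher and 0 lower, and the plakins 2 higher and 0 lower, where 17.3% of all genes were called. Evpl then stood at 0.38 and was not called (limma adjusted p = 0.178).

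Of 14 other integrin subunits tested, 2 rose and 3 fell over both sexes, at a median of -0.10, where 40.6% of all genes were called. Itgb1 and Itgb8 fell most, by 0.49 and 0.47 on the log2 scale (limma adjusted p = 0.000588 and 0.00106), and Itga2, a collagen-binding chain, fell in females by 0.77 (adjusted p = 0.00482). The corrected values were -0.14 for Itgb8 over both sexes and -0.51 for Itga2 in females, neither called (limma adjusted p = 0.225 and 0.0644). Among 10 tested tetraspanins besides Cd151, Cd63 rose by 0.24 and the leukocyte gene Cd53 fell by 0.95 (limma adjusted p = 0.00666 and 0.000426). Corrected for GC and length, Cd63 stood at 0 and was not called, and Cd53 stood at -0.45 and was still called (limma adjusted p = 0.988 and 0.025). Of 9 adaptors of focal adhesions, the other kind of integrin contact, 4 rose and 2 fell, with Zyx at 0.41 and Lims1 at -0.37 (limma adjusted p = 0.000536 and 0.00127). The correction left 2 adaptors higher and 0 lower, with Zyx at 0.21 and Lims1 at 0.01, no longer called (limma adjusted p = 0.0347 and 0.936).

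**Figure D5:**
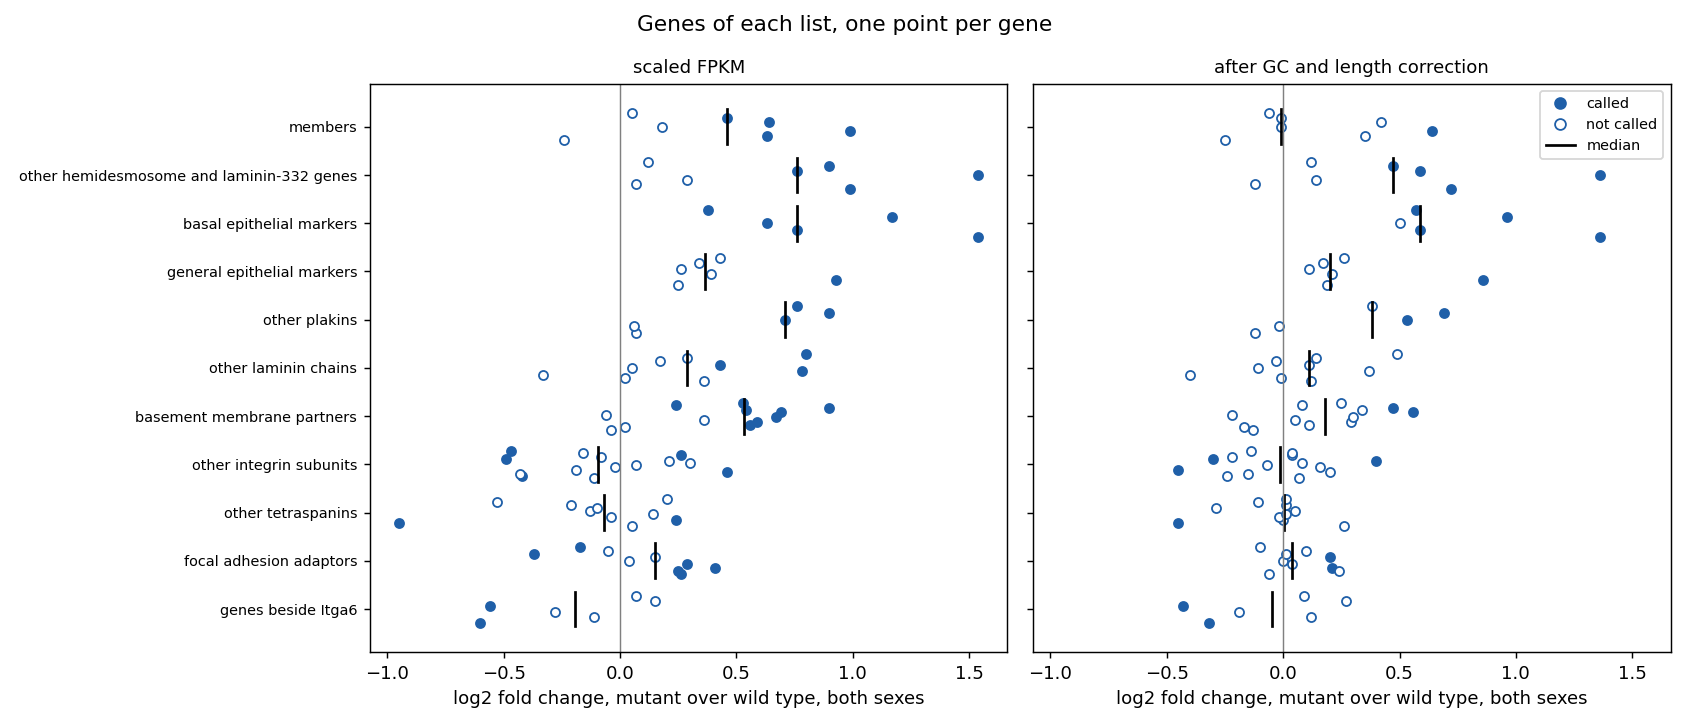
Log2 fold change over both sexes (horizontal axis) of each tested gene of 11 lists; filled points were called and black lines are medians. Left, scaled FPKM; right, after the GC and length correction. The medians of the members and of the other hemidesmosome genes are 0.46 and 0.76 on the left and -0.01 and 0.47 on the right.

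Other cells of the tissue that express members were read through their markers. Of all genes 21.6% fell over both sexes, 15.9% in females and 11.6% in males, and 18.9% rose over both sexes. Of 6 endothelial markers 0 rose and 1, the angiopoietin receptor gene Tek, fell over both sexes, by 1.06 (limma adjusted p = 0.00111), with summed levels of 67.7 to 108 scaled FPKM in mutant females and 105 to 119 in wild type females, and 105 to 127 in mutant males and 96.4 to 118 in wild type males. In females 2 of these endothelial markers fell, and in males 1. Of 6 Schwann cell markers 0 rose and 2 fell, among them Cdh19 by 0.84 (limma adjusted p = 0.00061; -0.28 and not called once corrected, adjusted p = 0.177), and the sums of the list were 29 to 43.5 in mutant females, 37.9 to 44.3 in wild type females, 41.5 to 47.7 in mutant males and 45.7 to 57.3 in wild type males. Of 6 markers of skeletal muscle, which also uses Plec, 5 fell in males and 0 in females. Ckm fell most, by 2.05 in males (limma adjusted p = 0.00132), Tnni2 stood at -0.82 over both sexes, and the muscle sums in males were 360 to 545 in mutants and 595 to 826 in wild type. Smooth muscle markers had 0 of 5 called, mesenchyme markers 1 of 6 (Dcn, lower by 0.70, limma adjusted p = 0.00414) and red cell markers 1 of 6 (Hba-a2, higher at 2.49, limma adjusted p = 0.0158) over both sexes. The corrected value of Dcn was -0.15, not called (limma adjusted p = 0.532). Hba-a2 has a near-identical copy, so its value is uncertain. Their part in the members' values was not tested.

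Beside Itga6 on chromosome 2, 6 of 8 listed neighbours passed the filter, and 2 of these fell and 0 rose over both sexes. Of all genes 40.6% were called in that comparison, 21.6% lower and 18.9% higher, so this count is near the general share. Hat1, a histone acetyltransferase, fell by 0.60 (limma adjusted p = 0.000205) and Rapgef4 by 0.56 (adjusted p = 0.00308), and their corrected values were -0.32 and -0.43, both still called (limma adjusted p = 0.00566 and 0.0255). Pdk1 was at 4.93 scaled FPKM in mutant female 1, the library lowest in Itga6, and at 11.2 and 14.8 in mutant females 2 and 3, against 14 in each wild type female. In males Pdk1 was at 10.6, 10.7 and 9.01 in mutants, against 8.7, 7.9 and 14.9 in wild type, so the male groups overlapped. Its value over both sexes was -0.28 and did not pass (limma adjusted p = 0.351).

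Likeness to a member was measured as the SD over the 12 libraries of the log2 ratio between a gene and the member, among 13042 named genes. The 5 genes most like Itga6 were Rbm24, Tspan5, Rbms3, Tmem241 and Gabarap, at SDs of 0.097 to 0.122, against a median of 0.333 over all tested genes. The other members were less like it, at 0.312 for Cd151, 0.365 for Lama3, 0.434 for Plec, 0.594 for Itga3 and Lamb3 and 0.719 for Itgb4. The 5 genes most like Itgb4 were Mrpl12, Pkp3, Furin, Nectin1 and Nbeal2, at 0.079 to 0.175, against a median of 0.599. Lamb3 and Itga3 came close behind, at ranks 32 and 42 and SDs of 0.23 and 0.244, and Itga6 was at rank 9852. The libraries of 4 groups share genotype, sex and depth in these measures.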

How the data were processed

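RNA sequencing was done on 12 urogenital sinus libraries from strand-specific single-end kits after ribosomal RNA depletion, per the labels' protocols. The deposited values are FPKM for 56495 genes, made by the authors, per the file headers. The submitters' processing notes name bedtools 2.30.0, STAR 2.7.10a, cutadapt 4.1 and Cufflinks 2.2.1, and the builds mm10 and mm39, with no role stated. Of the genes found in GENCODE M21 (GRCm38), 2.74% had the same end in the table, so its positions are taken as mm39, with 1 added to starts. FPKM hold no counts, so depth is unknown in reads. Relative depth was read from the steps of values under 0.05 FPKM, and FPKM sums ran from 276713 to 401093.

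The divisor of a library (0.748 to 1.13) was the median, over 11897 genes at 1 FPKM or more everywhere, of its ratio to their geometric means. A gene needed 1 FPKM in 3 libraries. Tests ran on log2 of scaled FPKM plus 0.5 with limma 3.58.1 in R 4.3.3: 4 group means, a trend in the prior variance, two-sided moderated tests and Benjamini-Hochberg adjustment over 13904 genes in 6 comparisons. The fit was tested on simulated data. Ratios were tested by exact permutation of genotype within sex, adjusted over 4 ratios. The GC and length correction subtracted, in each library, a spline fit (4 df each) of deviations from the gene mean on transcript GC and log2 length, for the 98.8% of tested genes with a value in GENCODE M21. Motifs were searched with Python 3.11.15.

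The members and lists were chosen with earlier results of these data known. Some listed genes and 1 ratio are not reported here. Otherwise every member and hemidesmosome gene is named and, of each other list, the 2 called genes with the largest change over both sexes and the 1 largest in either sex. Cdh1, Tek, Dcn and Hba-a2 were the sole calls of their lists over both sexes. Krt17 between the sexes, Pdk1 and the sex values of single libraries were named after their values were seen. Replicate numbers are shared by the labels but do not pair the libraries by their deviations.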

Additional observations from a re-analysis of the deposited data

How the results depend on the processing

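The count of genes called moved with several choices. With FPKM as deposited it was 1350 in males (121 higher and 1229 lower), 1666 in females (231 higher, 1435 lower) and 3424 with the sexes combined (552 higher, 2872 lower). With scaling these counts were 2820 (1202 and 1618), 3895 (1687 and 2208) and 5639 (2631 and 3008). After the GC and length correction it was 487, 1077 and 2372, and 397, 950 and 2286 with the replicate block added. With the libraries of the comparison alone it was 2360 in females, 1247 between the sexes in wild type (442 in the full fit) and 215 in mutants (1042). The sex counts were 243 and 254 in wild type with the stricter filter of 5 FPKM and with FPKM as deposited, and 657, 401 and 1932 in mutants with no filter, FPKM as deposited and scaling to the FPKM sum (1702 higher and 230 lower, against 553 and 489). The sex difference of the mutant effect had 1 call with a pseudocount of 0.1 or FPKM as deposited, 9 with no filter and 0 otherwise, with 0 to 1 when a library was left out. Leaving out each library gave 1240 to 3948 calls in males and 2439 to 4112 in females. Between the sexes it gave 160 to 990 in wild type and 433 to 1369 in mutants. In this order, the lowest were without mutant male 1, wild type female 1, wild type female 1 and mutant male 3. The highest were without mutant female 1, mutant female 2, mutant female 1 and mutant female 2. For males, females and both, the median change of all genes was -0.14, -0.08 and -0.11 with FPKM as deposited and -0.09, -0.21 and -0.15 with scaling to the FPKM sum.

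Among 994 values of single members under alternatives, 937 stayed on their side of the threshold (uncalled values could change sign), 37 lost a call, 16 gained one and 4 turned. The 4 are Plec after the GC and length correction, at -0.19 for males and -0.01 over both sexes, each with and without the replicate block. Itga6 over both sexes was called at -0.24 with the filter of 5 FPKM (limma adjusted p = 0.0464), at -0.41 with scaling to the FPKM sum, at -0.34 with the upper quartile and at -0.24 with the replicate block (adjusted p = 0.039). It was also called for males with the upper quartile (-0.39, limma adjusted p = 0.0372) and with the male libraries alone (-0.29, adjusted p = 0.0171), and for females with scaling to the FPKM sum (-0.43, adjusted p = 0.042). With FPKM as deposited 1 member was called in males and 1 in females. Itgb4 over both sexes kept its call in all 23 alternatives, at 0.64 to 1.08. Only 3 of 18 same-numbered pairs of libraries had correlated deviations over 0.1 (-0.23 to 0.32), so the numbers are not taken to pair samples. The 3 ratios kept their calls under the 17 alternatives run for each; with the replicate block Itga6 over Itgb4 differed by -1.23 (exact sign-flip adjusted p = 0.0417). The cause of these shifts was not tested. Without counts, the error of single low values cannot be given.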
